A study of Rattus norvegicus with 6 samples.

Results

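The genes of platelet-derived growth factor (PDGF) signalling and of NG2 were followed in RNA sequencing counts from rat myocardial cells in which eIF3m, a subunit of a complex that loads the small ribosomal subunit onto mRNA, had been targeted with siRNA. The set was fixed by symbol and holds 7 of the 31038 genes listed. It comprises the ligands Pdgfa, Pdgfb, Pdgfc and Pdgfd, the receptors Pdgfra and Pdgfrb, and Cspg4, which encodes the transmembrane chondroitin sulphate proteoglycan NG2. There were 3 libraries of cells given an siRNA against eIF3m and 3 of cells given a control siRNA. The cells of both groups are labelled NRVM, a name the labels do not spell out. They came from the heart muscle of rat embryos and were kept in a serum-containing medium. No strain, age, dose or duration of knockdown is given. One protocol field also describes feeding with dexamethasone, isobutylmethylxanthine and insulin, and the labels do not say whether these cells received it. The labels name replicates without saying that they were separate cultures, so the spread between libraries may be technical.

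PDGFs are dimeric growth factors that act on receptor tyrosine kinases of mesenchymal cells. PDGF-A and PDGF-C signal mainly through the alpha receptor, PDGF-D mainly through the beta receptor, and PDGF-B binds both. In the heart and its vessels the beta receptor is best known from pericytes and smooth muscle cells and the alpha receptor from fibroblasts, and NG2 is a classical surface marker of pericytes and of oligodendrocyte precursors. Bound receptors are phosphorylated and recruit adaptors and enzymes that feed the Ras and MAP kinase, phosphoinositide 3-kinase and phospholipase C pathways. Serum contains PDGF released by platelets.

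The promoter windows of the changed ligand gene and of the NG2 gene are printed because these are the changed genes of the set with an entry in the sequence table used (RefSeq, assembly GRCr8). That table held an entry for 6 of the 7 genes. Each window runs from 250 bases before to 50 bases after the annotated start, 5′ to 3′ on the strand of the gene, with GC boxes in capitals. The Pdgfa window lies at chr12:20759116-20759415 on the plus strand and the Cspg4 window at chr8:66160692-66160991 on the plus strand.

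Pdgfa: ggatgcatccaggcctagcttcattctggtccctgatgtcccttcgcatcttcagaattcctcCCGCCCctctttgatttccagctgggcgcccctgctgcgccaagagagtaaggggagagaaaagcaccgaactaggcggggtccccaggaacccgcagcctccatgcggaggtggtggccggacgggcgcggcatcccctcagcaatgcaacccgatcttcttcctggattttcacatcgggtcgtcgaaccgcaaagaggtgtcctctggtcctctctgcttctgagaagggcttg

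Cspg4: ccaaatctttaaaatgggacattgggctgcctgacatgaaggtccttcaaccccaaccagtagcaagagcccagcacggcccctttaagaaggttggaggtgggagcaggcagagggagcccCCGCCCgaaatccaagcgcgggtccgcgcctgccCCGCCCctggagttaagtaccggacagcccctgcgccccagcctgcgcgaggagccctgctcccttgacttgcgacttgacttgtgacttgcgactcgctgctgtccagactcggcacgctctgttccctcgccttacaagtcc

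The GC box searched was GGGCGG on both strands, and the capitals above are its reverse complement. The Pdgfa window held 1 such box and the Cspg4 window 2, against at least 1 in 33.1% of 33469 rat promoter windows of the same length. The GC content was 60.0% in the Pdgfa window and 62.0% in the Cspg4 window, against a median of 51.7% over all windows. The EGR site GCGNGGGCG, which can overlap a GC box, was in 4.98% of all windows and was not found in those of Pdgfa and Cspg4. The AP-1 site TGANTCA was in 7.33% of all windows. Among the 6 windows of the set it was found once, in that of Pdgfra, and neither of the printed windows held it. These matches describe letters in a window and not binding.

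Total counts were 10061575, 2156186 and 7901395 in eIF3m siRNA replicates 1, 2 and 3 and 7437285 to 8603602 in the control siRNA libraries. Eif3m itself stood at 91.7, 83.9 and 87.3 CPM (counts scaled to the size of each library) in eIF3m siRNA replicates 1, 2 and 3, against 137, 136 and 141 CPM in control siRNA replicates 1, 2 and 3 (log2 fold change -0.64 ± 0.05 SE, adjusted p = 1.41e-07). Of 12724 genes tested, 2220 (17.4%) rose and 2700 (21.2%) fell, 38.7% in all. The groups did not overlap for 48.6% of them, and the median log2 fold change was 0.01. With upper-quartile scaling 3015 rose and 2130 fell. With no scaling factors 4126 rose and 1684 fell, and the median over all genes was then 0.16. One library stood apart. In eIF3m siRNA replicate 1 a list of 14 blood and macrophage markers summed to 5266 CPM. The globin genes Hba1 (3021 CPM) and Hbb (2137 CPM) made up most of it. The list summed to 196 and 47.1 CPM in eIF3m siRNA replicates 2 and 3 and 29.7 to 65.9 CPM in the control siRNA libraries. Of 4 tested, 3 rose, and without that library edgeR called 0, with 2 at an unadjusted p under 0.05, while with all libraries limma-voom called 1. DESeq2 gave an adjusted p for 2 of the 4 and called 0, with 1 risen at an unadjusted p under 0.05. The labelled cell type was checked against 18 cardiomyocyte markers, of which 12 stayed below 5 CPM in every library. The ventricular myosin gene Myh7 had at most 0.191 CPM in any library, and Myl3, a ventricular myosin light chain, was at 0 counts in all 6.

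Of the 7 genes, 5 passed the filter on low counts, and among these Cspg4 rose, Pdgfrb and Pdgfa fell, and Pdgfb and Pdgfc did not pass the test. Pdgfra and Pdgfd were too low in most libraries to be tested. The groups did not overlap for Cspg4, Pdgfrb and Pdgfa, and they overlapped for the other 4 genes. Over all genes tested, 38.7% were called and the groups did not overlap for 48.6%.

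**Figure D1:**
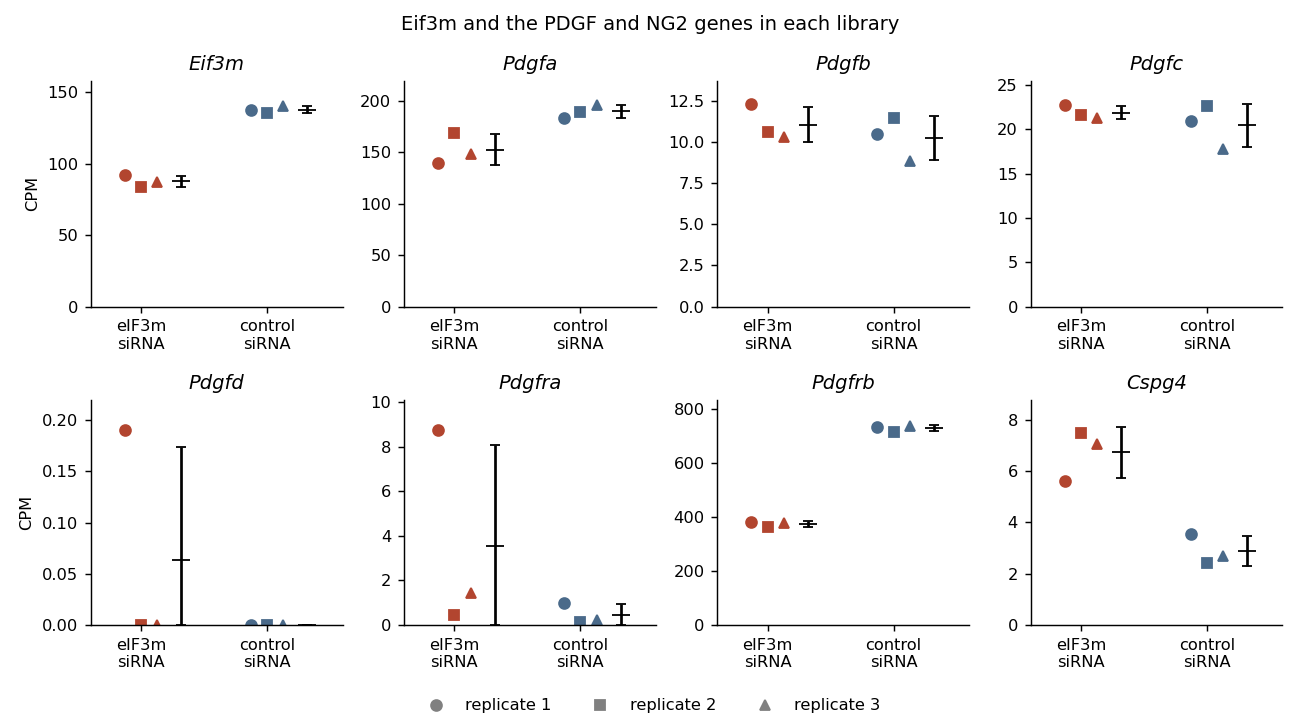
Scaled CPM (y axis, linear, from 0) of Eif3m and the 7 genes in eIF3m siRNA libraries (red, left) and control siRNA libraries (blue, right). Symbols mark replicates 1 to 3 and black bars the mean ± SD of 3 libraries, with lower bars cut at 0 where the SD exceeds the mean. Pdgfrb stands at 363 to 382 CPM in eIF3m siRNA libraries and 717 to 739 CPM in control siRNA libraries, and the Pdgfra mean of the eIF3m siRNA group rests on replicate 1.

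Among the ligands, Pdgfa fell with the knockdown, and Pdgfb and Pdgfc did not pass the test. Pdgfa encodes PDGF-A, the ligand of the alpha receptor. Its level was 140.0, 169 and 149 CPM in eIF3m siRNA replicates 1, 2 and 3, against 183, 189.7 and 197 CPM in control siRNA replicates 1, 2 and 3. All 3 eIF3m siRNA libraries lay below all 3 control siRNA libraries, and the spread was wider after eIF3m siRNA. It averaged 153 ± 14.98 CPM after eIF3m siRNA and 189.8 ± 6.60 CPM after control siRNA (SD, 3 libraries each). The difference was -0.33 ± 0.06 SE on the log2 scale, or -20.6%, with an adjusted p = 5.93e-04 in edgeR's quasi-likelihood test. In a bulk library fewer cells of a type and less RNA per cell cannot be told apart. With no scaling factors the fold change was -0.19 ± 0.06 SE (adjusted p = 0.0248).

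Pdgfb, whose product PDGF-B binds both receptors and recruits pericytes to vessels, had 12.3, 10.6 and 10.3 CPM in eIF3m siRNA replicates 1, 2 and 3, against 10.5, 11.5 and 8.85 CPM in control siRNA replicates 1, 2 and 3. The groups overlapped. The log2 fold change was 0.13 ± 0.16 SE, with a 95% interval of -0.22 to 0.48 (adjusted p = 0.569). Pdgfc encodes a ligand with a CUB domain that is released by proteolysis. It had 22.7, 21.6 and 21.2 CPM in eIF3m siRNA replicates 1, 2 and 3, against 20.9, 22.6 and 17.8 CPM in control siRNA replicates 1, 2 and 3. These groups overlapped too, and the log2 fold change was 0.10 ± 0.12 SE with a 95% interval of -0.14 to 0.35 (adjusted p = 0.515). Pdgfd, the other ligand with a CUB domain, had 2 counts in eIF3m siRNA replicate 1 and 0 counts in the other 5 libraries, which is under the floor of 3 counts. It was not detectable at this depth, where 3 counts were worth 0.286 to 1.32 CPM. These limits cover counting error alone.

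The weight of Pdgfb against Pdgfa was followed within each library, which does not depend on scaling. For every 100 Pdgfa counts there were 8.79, 6.27 and 6.94 Pdgfb counts in eIF3m siRNA replicates 1, 2 and 3, against 5.71, 6.06 and 4.50 in control siRNA replicates 1, 2 and 3. The 3 eIF3m siRNA values lay above the 3 control siRNA values. Counts also depend on transcript length, so the change between groups can be read from these ratios and the relative level of the genes cannot. The log2 ratio, with 0.5 counts added to each gene, was higher by 0.44 ± 0.19 SE after eIF3m siRNA (exact permutation test, two-sided, p = 0.1, the smallest that 3 against 3 libraries can give; 0.1 after adjustment over 3 ratios).

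Of the receptors, Pdgfrb fell and Pdgfra was close to the detection limit except in one library. Pdgfrb encodes the beta receptor. It had 382, 363 and 378 CPM in eIF3m siRNA replicates 1, 2 and 3, against 735, 717 and 739 CPM in control siRNA replicates 1, 2 and 3. The groups were far apart compared with the spread within each. It averaged 374 ± 10.3 CPM after eIF3m siRNA and 730.3 ± 11.4 CPM after control siRNA (SD, 3 libraries each). The log2 fold change of -0.96 ± 0.04 SE, or -48.7%, had a 95% interval of -1.04 to -0.89 (adjusted p = 1.50e-11). This value lay at percentile 1.85 of the fold changes of all 12724 genes tested. It was -0.97 ± 0.04 SE without eIF3m siRNA replicate 1 and -0.82 ± 0.04 SE with no scaling factors.

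Pdgfra encodes the alpha receptor. It had 92, 1 and 12 counts in eIF3m siRNA replicates 1, 2 and 3, against 7, 1 and 2 counts in control siRNA replicates 1, 2 and 3. On the CPM scale these were 8.77, 0.442 and 1.44 after eIF3m siRNA, against 0.990, 0.128 and 0.246 after control siRNA. Replicate 1 of the eIF3m siRNA group was high, the other 5 libraries were low, and the groups overlapped, since eIF3m siRNA replicate 2 lay below control siRNA replicate 1. Pdgfra did not reach the filter of 10 counts in the median library, or 1.24 CPM, in 3 libraries. With no filter the log2 fold change was 3.16 ± 0.49 SE (adjusted p = 2.66e-09). With no filter and without eIF3m siRNA replicate 1 it was 1.32 ± 0.78 SE and did not pass (adjusted p = 0.269). Pdgfra did reach the filter in the 4 sets that lack eIF3m siRNA replicate 2 or 1 of the control siRNA libraries. In those sets the filter asked for 2 libraries and not 3, and eIF3m siRNA replicates 1 and 3 alone met it. Pdgfra stood there at 2.80 to 4.38 (edgeR, adjusted p of 0.00268 to 0.0382). As it entered through the group where it was high, these values are no further support for a rise.

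The library with the high Pdgfra count was also high in markers of other cells. Endothelial markers summed to 269.9 CPM in eIF3m siRNA replicate 1, against 93.6 and 86.4 CPM in eIF3m siRNA replicates 2 and 3 and 135 to 147 CPM in the control siRNA libraries. Of the 15 endothelial markers 5 were tested, 3 rose and 2 fell. Without eIF3m siRNA replicate 1 edgeR called 0 risen and 2 fallen, with 2 in each direction at an unadjusted p under 0.05, and with all libraries limma-voom called 2 and 2, as did DESeq2, which gave an adjusted p for 4 of the 5. Egfl7, a secreted endothelial protein, fell by 0.56 ± 0.11 SE. Pecam1, an endothelial adhesion molecule, had 116 counts in eIF3m siRNA replicate 1, 0 and 1 in eIF3m siRNA replicates 2 and 3, and 1, 1 and 2 in the control siRNA replicates. Cdh5, the cadherin of endothelial junctions, had 30 counts in eIF3m siRNA replicate 1 and 0 in the other 5 libraries, and Robo4, also endothelial, was at 0 in all 6. The fibroblast proteoglycan gene Dcn stood at 55.4 CPM in eIF3m siRNA replicate 1, against 2.21 and 1.80 CPM in eIF3m siRNA replicates 2 and 3 and 0.983 to 1.28 CPM in the control siRNA libraries. Fibroblast markers as a whole summed to 18384 CPM there, against 17476 and 17215 CPM in eIF3m siRNA replicates 2 and 3. In the control siRNA libraries they summed to 16089 to 16599 CPM. The collagen gene Col1a1 alone gave 11914 to 13338 CPM of these sums over the 6 libraries. Of 13 fibroblast markers tested, 8 rose and 2 fell, and 4 rose and 4 fell without eIF3m siRNA replicate 1. The collagen genes Col1a1 (0.14 ± 0.01 SE) and Col3a1 (0.27 ± 0.03 SE) and Postn, periostin (0.35 ± 0.04 SE), rose, while Thy1, a surface glycoprotein, fell by 0.55 ± 0.04 SE and Ddr2, a collagen receptor, by 0.42 ± 0.04 SE. These 5 calls also passed without that library. The part of these cells in the Pdgfra count was not tested.

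**Figure D2:**
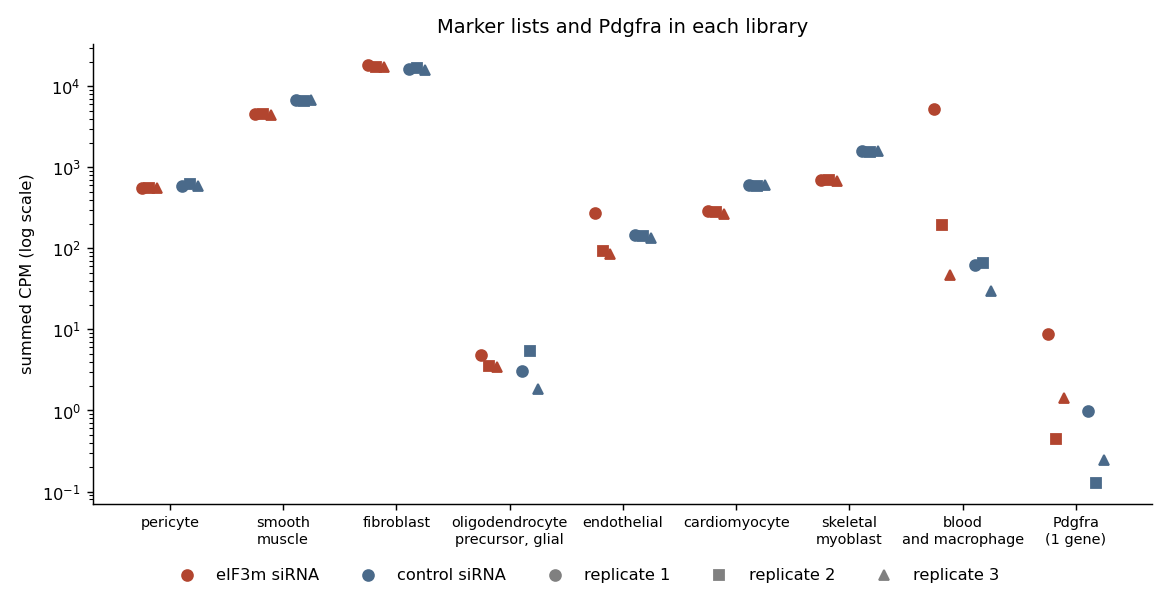
Summed scaled CPM (y axis, log scale) of 8 marker lists and the CPM of Pdgfra alone, in eIF3m siRNA libraries (red, left) and control siRNA libraries (blue, right), with symbols for replicates 1 to 3. Pdgfra, blood and macrophage markers and endothelial markers are all highest in eIF3m siRNA replicate 1, at 8.77, 5266 and 269.9 CPM.

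The receptor genes have close relatives as neighbours in the rat genome (RefSeq order on GRCr8, used for names and order alone). Kit, the stem cell factor receptor, lies next to Pdgfra, with Kdr, a vascular endothelial growth factor receptor, beyond it, and Csf1r, the receptor of macrophage colony-stimulating factor, lies next to Pdgfrb. Kit had 2 counts in eIF3m siRNA replicate 1 and 0 in the other 5 libraries. Kdr had 15, 1 and 3 counts in eIF3m siRNA replicates 1, 2 and 3, against 0 counts in each control siRNA library, with most of its counts in replicate 1 as for Pdgfra. Csf1r had 5.24, 1.77 and 2.28 CPM in eIF3m siRNA replicates 1, 2 and 3, against 1.41, 2.30 and 0.860 CPM in control siRNA replicates 1, 2 and 3, so that the groups overlapped. Its log2 fold change of 1.18 ± 0.44 SE passed the test (adjusted p = 0.0467), while that of its neighbour Pdgfrb was -0.96. Csf1r did not pass without eIF3m siRNA replicate 1 (0.49, adjusted p = 0.492), control siRNA replicate 1 (1.11, adjusted p = 0.133) or control siRNA replicate 3 (0.86, adjusted p = 0.199). These 3 neighbours were chosen after their values were seen.

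Between the receptor genes, 2.29, 0.122 and 0.381 Pdgfra counts stood against every 100 Pdgfrb counts in eIF3m siRNA replicates 1, 2 and 3, compared with 0.135, 0.0178 and 0.0333 in control siRNA replicates 1, 2 and 3. The log2 ratio with 0.5 counts added was higher by 3.34 ± 1.30 SE after eIF3m siRNA (exact permutation test, two-sided, p = 0.1, the smallest possible; 0.1 after adjustment over 3 ratios). The separation rests on the added count, since with none added the groups overlapped (exact permutation p = 0.2). The shift was 2.31 without eIF3m siRNA replicate 1.

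Cspg4 moved opposite to Pdgfrb, the other pericyte marker of the set. It had 5.63, 7.51 and 7.08 CPM in eIF3m siRNA replicates 1, 2 and 3, against 3.54, 2.42 and 2.70 CPM in control siRNA replicates 1, 2 and 3. All 3 eIF3m siRNA libraries lay above all 3 control siRNA libraries. These levels rest on 59, 17 and 59 counts in the eIF3m siRNA libraries and 25, 19 and 22 counts in the control siRNA libraries. It averaged 6.74 ± 0.986 CPM after eIF3m siRNA and 2.89 ± 0.578 CPM after control siRNA (SD, 3 libraries each). The log2 fold change was 1.18 ± 0.26 SE, with a 95% interval of 0.64 to 1.73 (adjusted p = 0.00186). All 6 libraries were above the filter level of 1.24 CPM, and the fold change lay at percentile 98.2 of all genes tested. Unlike Pdgfra, Cspg4 was lowest of its group in eIF3m siRNA replicate 1, and without that library its log2 fold change was 1.33 ± 0.29 SE (adjusted p = 0.00132).

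Within libraries, 1.47, 2.07 and 1.87 Cspg4 counts stood against every 100 Pdgfrb counts in eIF3m siRNA replicates 1, 2 and 3, against 0.481, 0.338 and 0.366 in control siRNA replicates 1, 2 and 3. The groups were well separated. The log2 ratio was higher by 2.18 ± 0.22 SE after eIF3m siRNA (exact permutation test, two-sided, p = 0.1, the smallest possible; 0.1 after adjustment over 3 ratios), and lay between 2.07 and 2.33 over the 6 sets that each lack 1 library.

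**Figure D3:**
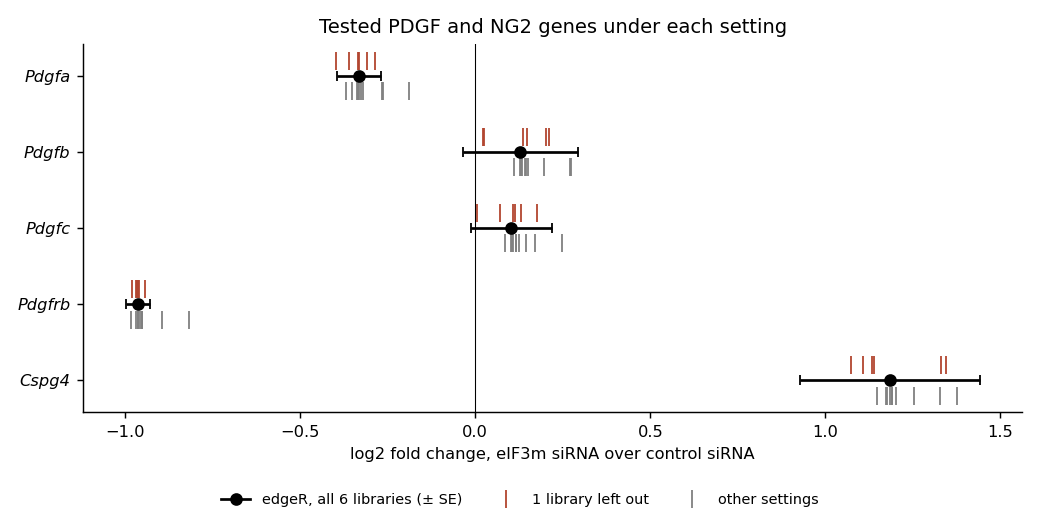
Log2 fold change of eIF3m siRNA over control siRNA (x axis) for the 5 tested genes. Black points are the edgeR values from all 6 libraries with SE bars, red ticks the values with 1 library left out and grey ticks those under the other settings. Pdgfrb stays between -0.98 and -0.82, Pdgfa between -0.40 and -0.19, and Cspg4 between 1.07 and 1.37, while the SE bars of Pdgfb and Pdgfc reach 0 or below it.

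The genes whose profile over the 6 libraries was nearest to each changed gene were sought among up to 9785 genes with a mean of at least 5 CPM, by the root mean square distance of centred log2 CPM. Nearest to Pdgfrb were Plod3, a lysyl hydroxylase of collagens (distance 0.0172), and Dpp7 (0.0198) and Tpp1 (0.0257), which encode lysosomal peptidases. Their log2 fold changes were -0.97, -0.98 and -0.93. Nearest to Pdgfa were Urod, an enzyme of haem synthesis (0.0274), Rassf8 (0.0279) and Cd3eap, a subunit of RNA polymerase I (0.0298), with log2 fold changes of -0.34, -0.31 and -0.37. Nearest to Cspg4, at a larger distance, were Cgn, the tight junction protein cingulin (0.0898), Pole2, a subunit of DNA polymerase epsilon (0.119), and Espl1, the separase that opens cohesin rings in mitosis (0.121). These rose by 1.13, 1.17 and 1.11 on the log2 scale. With 3 libraries in each of 2 groups such nearness mainly reflects the size of the group difference.

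The genes around the ligands were taken from lists. The counts of risen and fallen genes in each list stand against 17.4% risen and 21.2% fallen of all genes tested. Of 15 genes for ligand processing and retention 11 were tested, 1 rose and 5 fell, with a median log2 fold change of -0.08 against 0.01 over all genes. Among those that fell, Sparc, a matrix protein that binds PDGF-B, had 1842 ± 66.1 CPM after eIF3m siRNA and 3407 ± 46.2 CPM after control siRNA (-0.89 ± 0.02 SE, adjusted p = 7.68e-14). Lrp1, an endocytic receptor that associates with the beta receptor, fell by 0.53 ± 0.02 SE and Nrp2, a neuropilin co-receptor, by 0.79 ± 0.04 SE. Furin, a convertase that cleaves PDGF precursors, had 101 ± 10.96 CPM after eIF3m siRNA and 133 ± 12.3 CPM after control siRNA (-0.37 ± 0.08 SE, adjusted p = 0.00149). Plat, the tissue plasminogen activator that cleaves PDGF-C, was the gene that rose (0.16 ± 0.05 SE, adjusted p = 0.0207). It missed the threshold without control siRNA replicate 1 (0.17, adjusted p = 0.0558) or replicate 2 (0.13, adjusted p = 0.123). Plau, the urokinase that can cleave PDGF-D, had 9 counts in eIF3m siRNA replicate 1 and at most 1 count in any other library.

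Of 14 tested ligands of related families, 2 rose and 9 fell, with a median of -0.27. Tgfb3, a transforming growth factor beta, had 194 ± 3.96 CPM after eIF3m siRNA and 538 ± 6.74 CPM after control siRNA (-1.47 ± 0.04 SE, adjusted p = 6.29e-13). Vegfb, of the vascular growth factor family that shares its cystine knot fold with the PDGFs, fell by 0.51 ± 0.06 SE and Tgfb1 by 0.47 ± 0.06 SE. Kitlg, the ligand of Kit, rose (0.46 ± 0.09 SE, adjusted p = 8.20e-04). Fgf2, a fibroblast growth factor, had 1.82 ± 0.430 CPM after eIF3m siRNA and 0.816 ± 0.371 CPM after control siRNA (1.23 ± 0.43 SE, adjusted p = 0.0353). Fgf2 was under the filter level of 1.24 CPM in all control siRNA libraries and entered the test through the eIF3m siRNA group alone. Its call was lost with a replicate block (1.13, adjusted p = 0.0742). It was also lost without eIF3m siRNA replicate 1 (1.15) or 3 (1.18) and without control siRNA replicate 1 (1.13) or 2 (0.97), with adjusted p of 0.116 to 0.145.

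Of 10 tested receptors related to the PDGF receptors, 2 rose and 4 fell, with a median of -0.06. These shares were 20% and 40%, against 17.4% risen and 21.2% fallen of all genes. With no scaling factors 3 of the receptors rose and 2 fell, and DESeq2 called 1 risen and 3 fallen. Erbb3, a receptor of neuregulins, had 24.9 ± 1.53 CPM after eIF3m siRNA and 10.3 ± 0.197 CPM after control siRNA (1.26 ± 0.12 SE, adjusted p = 7.84e-07), and Csf1r is given above. Flt1, a vascular growth factor receptor, fell by 0.91 ± 0.05 SE and Igf1r, a receptor of insulin-like growth factors, by 0.44 ± 0.06 SE. Fgfr2 was at -0.24 ± 0.06 SE (adjusted p = 0.00472) and missed the threshold without eIF3m siRNA replicate 1 (-0.20, adjusted p = 0.0579), with no scaling factors (-0.10, adjusted p = 0.206) and with thinned libraries (-0.10, adjusted p = 0.517). Pdgfrl, a secreted protein related to the PDGF receptors, had 8.58, 2.21 and 5.16 CPM in eIF3m siRNA replicates 1, 2 and 3, against 5.66, 5.11 and 5.41 CPM in control siRNA replicates 1, 2 and 3 (0.18 ± 0.30 SE, adjusted p = 0.679).

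Of 36 tested receptor adaptors and signalling enzymes, 6 rose and 6 fell, with a median of -0.03. These shares, 16.7% in each direction, were near the 17.4% risen and 21.2% fallen of all genes. Nck2, an adaptor that binds the activated beta receptor, had 36.6 ± 1.54 CPM after eIF3m siRNA and 26.4 ± 0.752 CPM after control siRNA (0.46 ± 0.09 SE, adjusted p = 5.27e-04). Fyn, a Src family kinase, also rose (0.20 ± 0.05 SE). Map2k2, a kinase of the MAP kinase cascade, fell by 0.32 ± 0.05 SE, Src by 0.31 ± 0.06 SE and Map2k1 by 0.19 ± 0.05 SE. The Map2k1 call was lost with no scaling factors (-0.05, adjusted p = 0.434) and with thinned libraries (-0.10, adjusted p = 0.294). The adaptor Grb2 was at -0.01 ± 0.09 SE, Shc1 at -0.02 ± 0.05 SE and the phosphatase Ptpn11 at -0.09 ± 0.05 SE, with adjusted p of 0.941, 0.810 and 0.124. With no scaling factors 15 rose and 2 fell.

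Of 17 negative regulators of receptor signalling, all tested, 5 rose and 2 fell, with a median of 0.13. Errfi1, an inhibitor of receptor tyrosine kinases known mainly from the epidermal growth factor receptor, had 69.1 ± 4.30 CPM after eIF3m siRNA and 39.6 ± 3.78 CPM after control siRNA (0.79 ± 0.08 SE, adjusted p = 9.64e-07). Spry2, a Sprouty inhibitor of Ras signalling (0.32 ± 0.05 SE), and Ubash3b, a tyrosine phosphatase (0.67 ± 0.12 SE), also rose. Socs3, a suppressor of cytokine signalling, fell by 0.53 ± 0.06 SE. Ptpn1, a phosphatase that acts on the PDGF receptors, was at -0.29 ± 0.08 SE (adjusted p = 0.0124) and missed the threshold without eIF3m siRNA replicate 3 (-0.23, adjusted p = 0.0858) or control siRNA replicate 2 (-0.21, adjusted p = 0.0817) and with no scaling factors (-0.15, adjusted p = 0.168). Cbl, a ubiquitin ligase of activated receptors, was at 0.01 ± 0.09 SE (adjusted p = 0.958).

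Immediate early genes, which PDGF and serum induce in quiescent cells, counted 11 risen and 2 fallen of 25 tested, with a median of 0.13. Egr1, a zinc finger transcription factor, had 60.8 ± 4.59 CPM after eIF3m siRNA and 19.4 ± 3.91 CPM after control siRNA (1.68 ± 0.11 SE, adjusted p = 1.46e-08). Ier2 rose by 0.66 ± 0.06 SE and Dusp6, a phosphatase of ERK, by 0.65 ± 0.06 SE. Dusp1, another MAP kinase phosphatase, fell by 0.43 ± 0.05 SE. Ccl2, a chemokine that PDGF induces in fibroblasts, had 4.62 ± 1.73 CPM after eIF3m siRNA and 10.9 ± 1.38 CPM after control siRNA (-1.09 ± 0.22 SE, adjusted p = 8.98e-04). Myc was at -0.08 ± 0.04 SE (adjusted p = 0.0966) and Jun at 0.02 ± 0.04 SE (adjusted p = 0.710). With no scaling factors 17 rose and 2 fell.

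**Figure D4:**
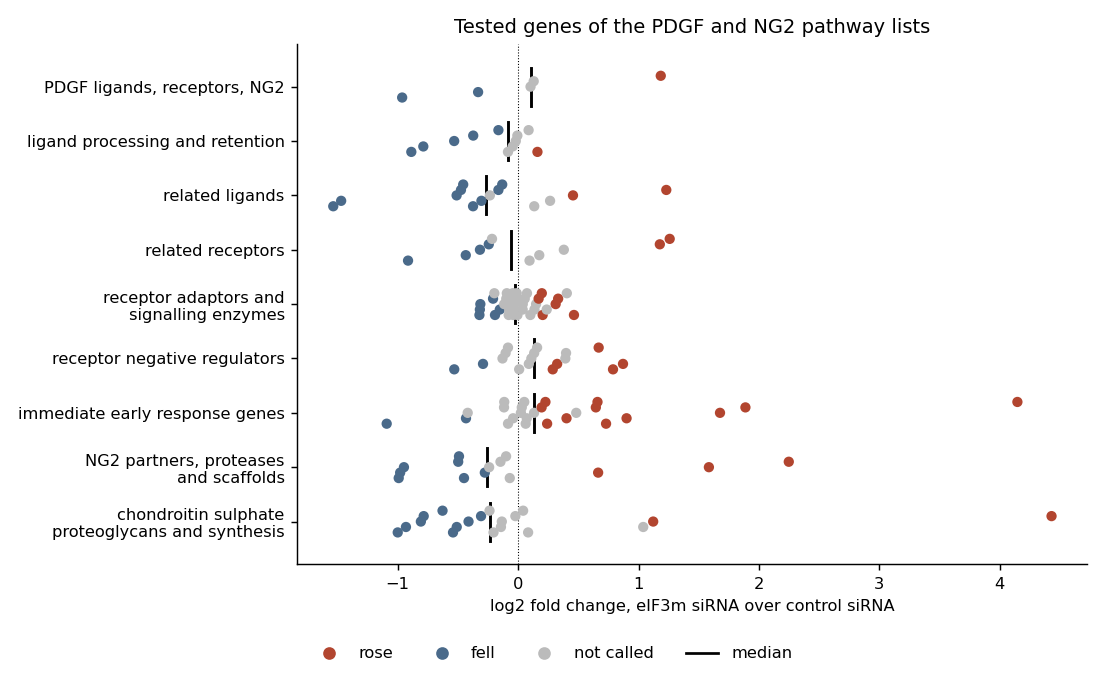
Log2 fold change of eIF3m siRNA over control siRNA (x axis) for each tested gene of the 7 genes and of 8 lists around them (rows). Red points rose, blue points fell and grey points did not pass the test (edgeR, adjusted p under 0.05), with black bars at the medians. Receptor adaptors and signalling enzymes have a median of -0.03, the partners of NG2 one of -0.26 and the proteoglycan genes one of -0.24.

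Of 14 tested partners, proteases and scaffolds of NG2, 3 rose and 7 fell, with a median of -0.26, where 17.4% of all genes rose and 21.2% fell. Itgb1, the beta subunit of the integrin that NG2 binds, had 1583 ± 54.5 CPM after eIF3m siRNA and 3055 ± 42.3 CPM after control siRNA (-0.95 ± 0.02 SE, adjusted p = 4.43e-14). Its partner subunit Itga3 fell by 0.98 ± 0.05 SE and Mmp14, a membrane protease that cleaves NG2, by 0.99 ± 0.05 SE. Adam10, which also sheds NG2, had 32.2 ± 4.38 CPM after eIF3m siRNA and 46.9 ± 2.55 CPM after control siRNA (-0.50 ± 0.09 SE, adjusted p = 3.93e-04). Sdcbp, the scaffold syntenin, fell by 0.45 ± 0.05 SE. Mmp16, a membrane protease related to Mmp14, rose (0.66 ± 0.14 SE, adjusted p = 0.00195).

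Col6a1 and Col6a2, chains of the type VI collagen that NG2 binds, passed the test, but through one library. Col6a1 had 11.7, 3.53 and 1.68 CPM in eIF3m siRNA replicates 1, 2 and 3, against 0.990, 1.15 and 1.72 CPM in control siRNA replicates 1, 2 and 3 (2.25 ± 0.58 SE, adjusted p = 0.00612). Without eIF3m siRNA replicate 1 it was at 0.77 (adjusted p = 0.273). Col6a2 was at 1.58 ± 0.47 SE (adjusted p = 0.0155). Its call was lost without eIF3m siRNA replicate 1 (0.34, adjusted p = 0.544), control siRNA replicate 1 (1.40, adjusted p = 0.0739) or control siRNA replicate 2 (1.51, adjusted p = 0.0672). Without eIF3m siRNA replicate 1 the whole list of NG2 partners counted 1 risen and 8 fallen.

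Of 19 tested chondroitin sulphate proteoglycans and enzymes that build their chains, 2 rose and 9 fell, with a median of -0.24. Vcan, the large matrix proteoglycan versican, rose as Cspg4 did and had 133 ± 5.67 CPM after eIF3m siRNA and 61.3 ± 0.632 CPM after control siRNA (1.12 ± 0.05 SE, adjusted p = 3.73e-10). Dcn, the small proteoglycan decorin, was at 4.43 ± 1.03 SE (adjusted p = 0.00319), through the library described above, and at 0.81 without it (adjusted p = 0.241). Bgn, the small proteoglycan biglycan, fell by 0.63 ± 0.01 SE. Chpf2 and Chpf, which take part in the polymerisation of chondroitin, fell by 0.93 ± 0.05 SE and 0.78 ± 0.05 SE. Chst15, which adds sulphate to the chains, had 48.7 ± 3.81 CPM after eIF3m siRNA and 95.1 ± 2.12 CPM after control siRNA (adjusted p = 4.10e-09). Csgalnact2, which starts the chains, was at -0.02 ± 0.06 SE (adjusted p = 0.782).

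Markers of the cells known for the beta receptor and NG2 moved in both directions. Of 17 pericyte markers 9 stayed below 5 CPM in every library and 10 were tested, of which 3 rose and 5 fell. The list summed to 553 to 557 CPM in the eIF3m siRNA libraries and 594 to 619 CPM in the control siRNA libraries. Notch3, the Notch receptor of mural cells, had 69.9 ± 1.62 CPM after eIF3m siRNA and 26.8 ± 0.649 CPM after control siRNA, and thus went with Cspg4 (1.39 ± 0.07 SE, adjusted p = 4.71e-10). Tbx18 also rose (0.46 ± 0.05 SE), and Foxc1 was at 0.34 ± 0.12 SE (adjusted p = 0.0317). The Foxc1 call was lost without eIF3m siRNA replicate 1 (0.33, adjusted p = 0.0770) or 3 (0.31, adjusted p = 0.111) and without control siRNA replicate 1 (0.23, adjusted p = 0.151) or 3 (0.33, adjusted p = 0.0892). Abcc9, a potassium channel subunit, fell by 1.05 ± 0.07 SE, Angpt1, an angiopoietin, by 1.08 ± 0.11 SE and Mcam, a surface adhesion molecule, by 0.27 ± 0.05 SE, and thus went with Pdgfrb. Rgs5, a defining pericyte marker, had 20, 1 and 1 counts in eIF3m siRNA replicates 1, 2 and 3 and 0 in each control siRNA library.

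Of 11 tested smooth muscle markers 0 rose and 8 fell, with a median of -0.65, and their sum was 4365 to 4520 CPM in the eIF3m siRNA libraries and 6584 to 6751 CPM in the control siRNA libraries. The count of risen members was also 0 at an unadjusted p under 0.05 in edgeR and with DESeq2 and limma-voom. Acta2, smooth muscle actin, had 2459 ± 61.8 CPM after eIF3m siRNA and 3520 ± 53.0 CPM after control siRNA (-0.52 ± 0.02 SE, adjusted p = 4.84e-12), Cald1, caldesmon, fell by 0.65 ± 0.03 SE and Tagln, transgelin, by 0.67 ± 0.03 SE. Of 11 markers of oligodendrocyte precursors and glia, the other cells known for NG2, all stayed below 5 CPM in every library, and Sox10, Olig2 and Mag were at 0 counts in all 6.

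Markers of striated muscle fell beside Pdgfrb. Of 6 tested cardiomyocyte markers 0 rose and 4 fell, with a median of -1.12, and the list summed to 268 to 289.9 CPM in the eIF3m siRNA libraries and 596 to 608 CPM in the control siRNA libraries. Tnnt2, cardiac troponin T, had 152 ± 8.39 CPM after eIF3m siRNA and 365 ± 8.84 CPM after control siRNA (-1.27 ± 0.05 SE, adjusted p = 5.98e-11). Pln, phospholamban, fell by 3.13 ± 0.19 SE, and Tnnc1, troponin C, fell by 0.97 ± 0.06 SE. Of 8 tested skeletal myoblast markers 0 rose and 7 fell, with a median of -1.21 and sums of 680 to 698 CPM in the eIF3m siRNA libraries and 1564 to 1579 CPM in the control siRNA libraries. Itga7, the alpha subunit of a laminin receptor of muscle, had 638 ± 7.04 CPM after eIF3m siRNA and 1460.2 ± 6.64 CPM after control siRNA (adjusted p = 1.20e-14). Myog, the muscle transcription factor myogenin, fell by 1.84 ± 0.17 SE, and Acta1, skeletal actin, fell by 1.78 ± 0.14 SE. For both lists the count of risen genes was also 0 at an unadjusted p under 0.05 in edgeR and with DESeq2 and limma-voom. Without eIF3m siRNA replicate 2, 1 of 7 tested cardiomyocyte markers rose, the cardiac transcription factor gene Gata4 (0.48 ± 0.17 SE, adjusted p = 0.0430), which was named after its values were seen. The part of muscle and pericyte genes in the changes of Pdgfrb and Cspg4 was not tested.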

How the data were processed

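Counts of 31038 genes in 6 rat RNA sequencing libraries were analysed. The authors deposited whole-number counts per gene symbol, not normalised. Trimmomatic 0.40, HISAT2 2.2.1, featureCounts, DESeq2, limma and build rn6 are named, without roles, per the submitters' processing notes. The sources used here do not give the annotation, strand setting or counting rules. Overlapping genes may therefore share reads. A SMARTER kit and 1.3 ug of RNA per library are stated per the labels' protocols. In each file 27 symbols had become calendar dates. They were left out and held 0.203% to 0.216% of counts.

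Groups came from sample titles. Genes were filtered with filterByExpr (minimum count 10, minimum total 15), scaled by TMM and tested in R 4.3.3 with edgeR 4.0.16 (quasi-likelihood F-test, eIF3m siRNA over control siRNA, no covariate). Genes could pass the filter through their higher group alone, and the counts of risen genes in the lists include such genes. The threshold was a Benjamini-Hochberg adjusted p under 0.05 over 12724 genes, two-sided. All adjusted p-values come from this fit unless another setting is named. The procedure was tested on simulated counts in which no library stood apart. That test says nothing about calls carried by an outlying library. CPM are relative to TMM-scaled totals, and SE are those of the fit. Alternatives were limma-voom (limma 3.58.1), DESeq2 1.42.0, other scalings and filters, robust dispersion, thinned counts, a replicate block and leaving out each library.

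The 7 genes and the 16 lists were chosen with earlier results of these data known. Named are all 7 genes, Eif3m, the 3 genes nearest to each changed gene and, per list and direction, the called genes or the 3 with the lowest p. Of the genes this rule picks, 2 are not reported here. Other genes were named after their values were seen. Of the listed symbols 3 were not found, and all 7 genes matched a current symbol in RefSeq (GRCr8).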

Additional observations from a re-analysis of the deposited data

How the results depend on the processing

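The calls of Cspg4, Pdgfrb and Pdgfa and the lack of a call for Pdgfb and Pdgfc held under all 16 alternatives, as did their directions (80 of 80 values). Of 1198 values for 76 other genes picked by the naming rule, 1138 kept direction and call and 60 missed the threshold. Genes named outside that rule, such as Furin, Adam10 and Chst15, were not in this count. Genes without an adjusted p under a setting, through its filter or in DESeq2, are not counted for that setting. Of the 60, 11 came with thinned libraries, where Plat, Kitlg (0.31), Fgfr2, Map2k1, Ptpn1, Mmp16 (0.37), Foxc1, Mcam (-0.16), Egfl7 (-0.37), Urod and Cd3eap were lost. Without scaling factors Fgfr2, Map2k1, Ptpn1 and Urod were lost, and with no filter Plat and Fgf2. Of the others, 12 came without eIF3m siRNA replicate 1 and 8 under robust dispersion (Col6a1, Col6a2, Dcn, the globin genes Hbb and Hba1, and the endothelial Stab1, Mmrn2 and Vwf). Where DESeq2 gave an adjusted p, it did not call Fgf2, Csf1r, Col6a2 and Foxc1. It gave one for 2 of 4 tested blood and macrophage markers, 4 of 5 endothelial markers and 12 of 13 fibroblast markers. Markers without one were not called by DESeq2 either. In limma-voom Dcn, Vwf, Hbb and Hba1 were not called. The number of risen genes was 4126 with no scaling factors and 1354 with libraries thinned to 2151671 counts, and that of fallen genes 1684 and 1795. With 1 library left out, 1692 to 2113 rose and 2336 to 2641 fell. The cause was not tested. Same-numbered libraries of the groups did not deviate together (Pearson r of 0.0064, -0.044 and 0.025 over 10483 genes), so the numbers were not taken as pairs. With a replicate block 2123 genes rose and 2632 fell, Cspg4 was at 1.17, Pdgfrb at -0.96, Pdgfa at -0.33, Pdgfb at 0.15 and Pdgfc at 0.12. The ratios of Pdgfra to Pdgfrb, Cspg4 to Pdgfrb and Pdgfb to Pdgfa were also compared with 2 counts added. As a choice made after seeing the data, they were compared with none added too. Their shifts stayed within 1 SD of the larger group spread. Paired differences, also taken after seeing the data, have the same mean as the group difference by construction. They were therefore no further check. Depth limits Pdgfra, Pdgfd and the smallest library, eIF3m siRNA replicate 2.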
